A study of Mus musculus with 10 samples.

Results

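Oligoadenylate synthetases were measured in cultured splenic B cells of mice with intact Irf4 (Irf4+/+) and of mice lacking intact Irf4 (Irf4-/-), on 5 arrays per genotype. The Irf4 protein is an interferon regulatory factor that B cells make on activation. The family was taken as 7 mouse genes: the synthetases Oas1a, Oas1b, Oas1g, Oas2 and Oas3 and the synthetase-like genes Oasl1 and Oasl2. Every probe set that the platform annotation lists under a symbol or synonym of these genes was used, which gave 6 probe sets (of 45037 that are not controls), 1 for each gene except Oas1g, which was not analysed here. Both groups were C57BL/6 littermates aged 12 weeks, their B cells were enriched by removing other spleen cells magnetically, and both were stimulated for 3 days with an antibody against CD40 plus IL-4 at 20 ng/ml. Separate mice or cultures are not named for the 5 samples of a genotype, so p-values cover only the spread among these arrays, and that spread may be technical. No unstimulated sample is among the 10.

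Oligoadenylate synthetases sense double-stranded RNA. When bound to it they join ATP into short adenylate chains with an unusual linkage, which act as messengers in the antiviral response. Type I interferon induces the synthetase genes through the factor ISGF3, which holds STAT2 and IRF9 among its subunits and binds interferon-stimulated response elements in their promoters. IRF4 belongs to the same protein family as IRF9 and binds related elements, alone or beside ETS factors.

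Promoter sequence was available from the RefSeq promoter table of build GRCm38.p6 for 5 of the 7 genes, among them 4 with a probe set. The 150 bases before the gene start are shown for these 4, 5′ to 3′ on the gene's strand, because they let the response element be set beside each gene's change. Capitals mark matches to the core of the interferon-stimulated response element, searched on both strands as GAAA, any 2 bases and GAAA again. The windows are Oas1a at chr5:120907526-120907675 (minus strand), Oas3 at chr5:120777660-120777809 (minus strand), Oasl1 at chr5:114923090-114923239 (plus strand) and Oasl2 at chr5:114896784-114896933 (plus strand).
Oas1a: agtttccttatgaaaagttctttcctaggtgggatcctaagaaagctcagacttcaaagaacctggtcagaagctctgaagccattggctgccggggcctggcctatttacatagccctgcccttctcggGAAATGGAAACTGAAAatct
Oas3: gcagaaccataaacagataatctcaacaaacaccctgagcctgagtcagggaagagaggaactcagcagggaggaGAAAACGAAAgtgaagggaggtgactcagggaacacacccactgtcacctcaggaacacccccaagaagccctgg
Oasl1: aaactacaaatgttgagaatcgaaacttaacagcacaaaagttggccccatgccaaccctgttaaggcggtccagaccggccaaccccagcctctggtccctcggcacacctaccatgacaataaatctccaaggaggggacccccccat
Oasl2: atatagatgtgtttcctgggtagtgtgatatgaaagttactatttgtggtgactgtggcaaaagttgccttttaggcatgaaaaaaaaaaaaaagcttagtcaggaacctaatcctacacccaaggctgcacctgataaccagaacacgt
Oas1a held 2 overlapping matches, at bases -20 to -11 and -14 to -5 from the gene start, and Oas3 held 1, at bases -75 to -66. The windows of Oasl1 and Oasl2 held 0 matches in the 300 bases from 250 before to 50 after the start. Of 32851 mouse promoters of that length, 3.44% held at least 1 match. An ETS and IRF composite, searched on both strands as GGAA, any 2 bases and GAAA, had 0 matches in these 4 promoters and at least 1 match in 2.72% of all promoters. The promoter of Oas1g also held 2 response element matches and was 85.3% identical to that of Oas1a over their alignment, against 45.9% to 50.3% for the other pairs of members. A match is a run of letters and not a measured binding site, and no match says only that these letters are not in the window.

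The deposited values are MAS5 signal intensities on a linear scale. Comparisons used log2(signal + 7.9), with the 20th percentile of all values, 7.9, as the pseudocount, so fold changes of dim genes are understated. Genotypes were compared in limma over all 27024 probe sets whose mean over the 10 arrays reached 25.1, the 40th percentile of such means, and a probe set was called at a Benjamini-Hochberg adjusted p under 0.05 over all of them. Across the arrays the genotypes differed widely: 10780 probe sets (39.9%) passed, of which 5535 (20.5%) had more and 5245 (19.4%) less signal in the Irf4-/- arrays, with a median log2 fold change of 0.02. The number of arrays limits the precision. The brighter Irf4 probe set gave 3426 to 3978 in Irf4+/+ and 2638 to 2989 in Irf4-/- samples (log2 fold change -0.43, SE 0.0555, adjusted p = 9.39e-06). No source used here places it inside or outside the disrupted stretch, so it does not check the genotype.

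All 6 measured genes were called higher in Irf4-/- samples, by 1.37-fold to 12.7-fold on the log2(signal + 7.9) scale, where 20.5% of all probe sets tested were called higher. The groups did not overlap for 4 of the 6 (Oas1a, Oas2, Oas3 and Oasl2), and 15.1% of all probe sets tested lay wholly higher in Irf4-/- samples. The log2 fold changes of Oas1a, Oas3 and Oasl2 were 3.66, 3.45 and 2.77, and those of Oas1b, Oas2 and Oasl1 were 1.13, 0.96 and 0.46. The values of Oas3 and Oasl2, which had the lowest Irf4+/+ signals, rest on the pseudocount. In RNA from a mixed culture, more cells of a type and more RNA per cell cannot be told apart. Oas3 and Oasl2 had Irf4+/+ means under the level of the filter and passed it through the Irf4-/- arrays, and both were also called with no filter (where 11.7% of 45037 probe sets were called higher).

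**Figure D1:**
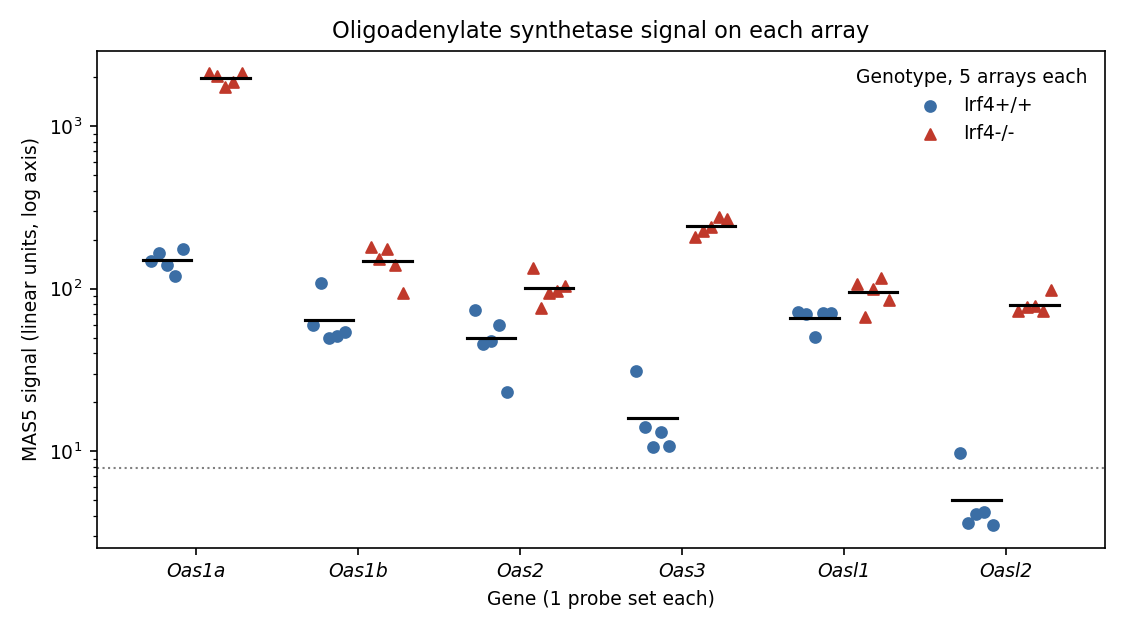
MAS5 signal (linear units on a log axis) of the 6 measured genes on each of the 10 arrays, with circles for Irf4+/+, triangles for Irf4-/-, a black line at each group's mean and a dotted line at 7.9, the 20th percentile of all values. Oas1a, Oas3 and Oasl2 have a wide gap between the genotypes, Oas2 a narrow one, and the groups of Oas1b and Oasl1 overlap.

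Oas1a, a classical synthetase, had the brightest probe set of the family. Its signal was 147.4, 165.6, 140.6, 119.7 and 174.5 in Irf4+/+ replicates 1 to 5, and 2111.6, 2034.7, 1752.7, 1862.4 and 2115.9 in Irf4-/- replicates 1 to 5. Every Irf4-/- array was at least 1752.7 and every Irf4+/+ array at most 174.5. The means were 149.6 ± 21.5 and 1976 ± 161 (SD, n = 5), and the log2 fold change 3.66 (SE 0.0940, adjusted p = 3.92e-14), or 12.7-fold. This was rank 25 among the 27024 log2 fold changes counted from the highest. Oas1a and Oas1g lie in the same gene cluster, and no source used here says whether the Oas1a probe set also binds Oas1g transcripts.

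Oas3, the largest synthetase of the family, had low signal in Irf4+/+ samples, with a mean under the level of the filter. Irf4+/+ replicates 1 to 5 gave 31.2, 14.0, 10.6, 13.2 and 10.8, and Irf4-/- replicates 1 to 5 gave 208.1, 226.8, 239.9, 277.5 and 268.1. The groups were far apart, and Irf4+/+ replicate 1 was the highest of its group. The means were 16.0 ± 8.65 and 244.1 ± 28.7 (SD, n = 5), and the log2 fold change 3.45 (SE 0.199, adjusted p = 6.22e-10), or 11.0-fold. The size of this fold rests on the pseudocount: the log2 fold change was 3.96 with a pseudocount of 1 and 2.70 with 26.1, the 40th percentile of all values.

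Oasl2, a synthetase-like protein with ubiquitin-like domains that keeps synthetase activity in the mouse, had the lowest Irf4+/+ signal of the 6. Its signal there was 9.8, 3.6, 4.1, 4.2 and 3.5 in replicates 1 to 5, against 72.5, 77.1, 77.7, 73.1 and 97.6 in Irf4-/- replicates 1 to 5. All Irf4-/- arrays lay above all Irf4+/+ arrays, and 4 of the Irf4+/+ arrays were under the 20th percentile of all values. The means were 5.04 ± 2.68 and 79.6 ± 10.3 (SD, n = 5), and the log2 fold change 2.77 (SE 0.249, adjusted p = 1.43e-07), or 6.83-fold. It was 3.82 with a pseudocount of 1 and 1.76 with 26.1.

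Oas1b is the gene known for flavivirus resistance in mice, and RefSeq lists it as a transcribed pseudogene in this strain, whose copy is truncated. Irf4+/+ replicates 1 to 5 gave 59.6, 108.7, 49.9, 51.1 and 53.8, and Irf4-/- replicates 1 to 5 gave 180.4, 151.3, 176.5, 139.8 and 94.5. The groups overlapped, because Irf4+/+ replicate 2 was above Irf4-/- replicate 5. The means were 64.6 ± 24.9 and 148.5 ± 34.6 (SD, n = 5), and the log2 fold change 1.13 (SE 0.206, adjusted p = 2.88e-04), or 2.19-fold.

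Oas2, a synthetase of intermediate size, was also called higher. Its signal was 74.1, 45.5, 47.7, 59.4 and 23.2 in Irf4+/+ replicates 1 to 5, and 134.9, 76.2, 94.4, 96.8 and 103.8 in Irf4-/- replicates 1 to 5. The groups were separate by a small margin, 74.1 against 76.2. The means were 50.0 ± 18.8 and 101.2 ± 21.4 (SD, n = 5), and the log2 fold change 0.96 (SE 0.227, adjusted p = 0.00260), or 1.95-fold.

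Oasl1, a synthetase-like protein without synthetase activity that is known to hold back translation of Irf7, had the smallest log2 fold change of the 6. Irf4+/+ replicates 1 to 5 gave 71.5, 69.4, 50.1, 70.5 and 70.6, and Irf4-/- replicates 1 to 5 gave 107.2, 67.2, 99.2, 116.3 and 84.9. Irf4-/- replicate 2 lay within the Irf4+/+ range and the other 4 above it. The means were 66.4 ± 9.15 and 95.0 ± 19.3 (SD, n = 5), and the log2 fold change 0.46 (SE 0.162, adjusted p = 0.0338), or 1.37-fold. The call was lost in 7 of 21 alternatives. These were no filter (adjusted p = 0.0731), quantile normalization (adjusted p = 0.0843), centring each array on its median (adjusted p = 0.0745), and leaving out Irf4+/+ replicate 3 (adjusted p = 0.0823) or Irf4-/- replicate 1, 3 or 4 (adjusted p = 0.0812, 0.0708 and 0.0902). Over all 21 its adjusted p ran from 0.00960 to 0.0902.

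**Figure D2:**
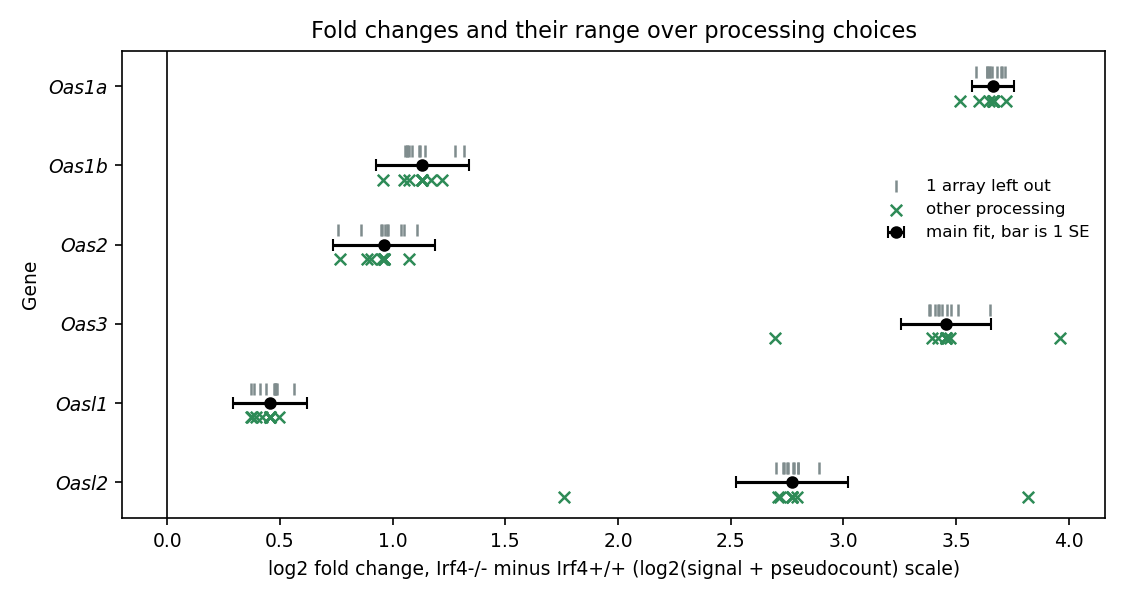
Log2 fold change (Irf4-/- minus Irf4+/+) of each gene, with a point and a bar of 1 SE for the main fit, ticks for fits without 1 array and crosses for other processing choices. All values are above 0, and those of Oas3 and Oasl2 spread widest, from 2.70 to 3.96 and from 1.76 to 3.82.

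The unequal changes were tested within arrays, as the log2 difference between a pair of members on each array, compared between genotypes by an exact two-sided permutation test and adjusted over the 15 pairs. The smallest p that 5 arrays against 5 can give is 0.00794. Of the 15 pairs 12 differed (adjusted p under 0.05), most of them pairs that hold Oas3 or Oasl2. Those genes passed the filter through the Irf4-/- arrays, so the count rests largely on them. Oas1a exceeded Oas1b by 2.53 (SE 0.250), Oas2 by 2.70 (SE 0.323) and Oasl1 by 3.21 (SE 0.193) on the log2 scale (exact permutation adjusted p = 0.0108 for each). These 3 differences ran from 2.36 to 2.64, 2.55 to 2.96 and 3.09 to 3.30 over the 13 alternatives run for pairs. Oas3 and Oasl2 each differed from Oas1b, Oas2 and Oasl1 as well (exact permutation adjusted p = 0.0108 for each), but the sizes rest on the pseudocount: Oas1b minus Oasl2 was -1.64, and ran from -2.60 to -0.81 over the alternatives. Unequal differences do not show that any gene was unaffected.

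The order among Oas1a, Oas3 and Oasl2 was not settled. The log2 fold change of Oas1a exceeded that of Oas3 by 0.21 (SE 0.247, exact permutation adjusted p = 0.510), and the difference was -0.24 with a pseudocount of 1 and 0.82 with 26.1 (adjusted p = 0.549 and 0.00992). Oas1a exceeded Oasl2 by 0.89 (exact permutation adjusted p = 0.0108), but with a pseudocount of 1 the difference was -0.0945 (adjusted p = 0.794). Oas3 exceeded Oasl2 by 0.68 (exact permutation adjusted p = 0.0108), and by 0.14 with a pseudocount of 1 (adjusted p = 0.367). Oas1b and Oas2 differed by 0.17 (SE 0.353, exact permutation adjusted p = 0.635), and Oas2 and Oasl1 by 0.51 (SE 0.270, adjusted p = 0.0916). Oas1b exceeded Oasl1 by 0.67 (SE 0.252, exact permutation adjusted p = 0.0397), a difference with adjusted p = 0.0595 or 0.0794 without Irf4+/+ replicate 1, 3, 4 or 5 or Irf4-/- replicate 1, 2 or 3.

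Within a genotype the correlations between the genes were mixed. Low correlation among dim probe sets on few arrays cannot show that the genes vary apart. After each genotype's mean was subtracted, Pearson's r over the 10 arrays ran from -0.43 (Oas1a with Oas2) to 0.85 (Oas3 with Oasl2) over the 15 pairs, with a median of 0.05 and 8 of 15 above 0. Oas3 and Oasl2 were both highest in replicate 1 among the Irf4+/+ arrays. These values describe 10 arrays that share their scaling. With the genotypes pooled, r ran from 0.68 to 0.996.

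All the genes lie on chromosome 5, which does not carry Irf4, in a pair (Oasl2, Oasl1) and a cluster running from Oas2 to Oas1d in the RefSeq order of GRCm38.p6. Neighbours differed in size of change: Oasl2 stands next to Oasl1, and Oas3 next to Oas2. Of the other cluster genes, Oas1c rose 1.94-fold, from 88.8 ± 6.27 to 179.8 ± 15.9 (SD, n = 5; log2 fold change 0.96, SE 0.107, adjusted p = 1.88e-06), with no overlap between the groups. Its promoter window held 2 response element matches on the strand opposite to the gene. Oas1e, Oas1f and Oas1h did not reach the filter, with group means of 9.46 to 24.2, and the probe set shared by Oas1e and Oas1d gave 3.94 and 3.28. Among the 16 annotated genes within 4 genes of either group (protein-coding genes and transcribed pseudogenes), 12 were tested. Of these, by each gene's brightest probe set, 4 were called higher, 1 lower and 7 not called. Over all probe sets, which include dimmer ones of the same genes, 20.5% were called higher and 19.4% lower. Dtx1, a Notch pathway gene next to Oas2, rose from 104.5 to 298.4 (log2 fold change 1.47, SE 0.130, adjusted p = 1.23e-07), and the gene next to Oas1d, Rph3a, did not pass (0.52 on the log2 scale, adjusted p = 0.427).

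**Figure D3:**
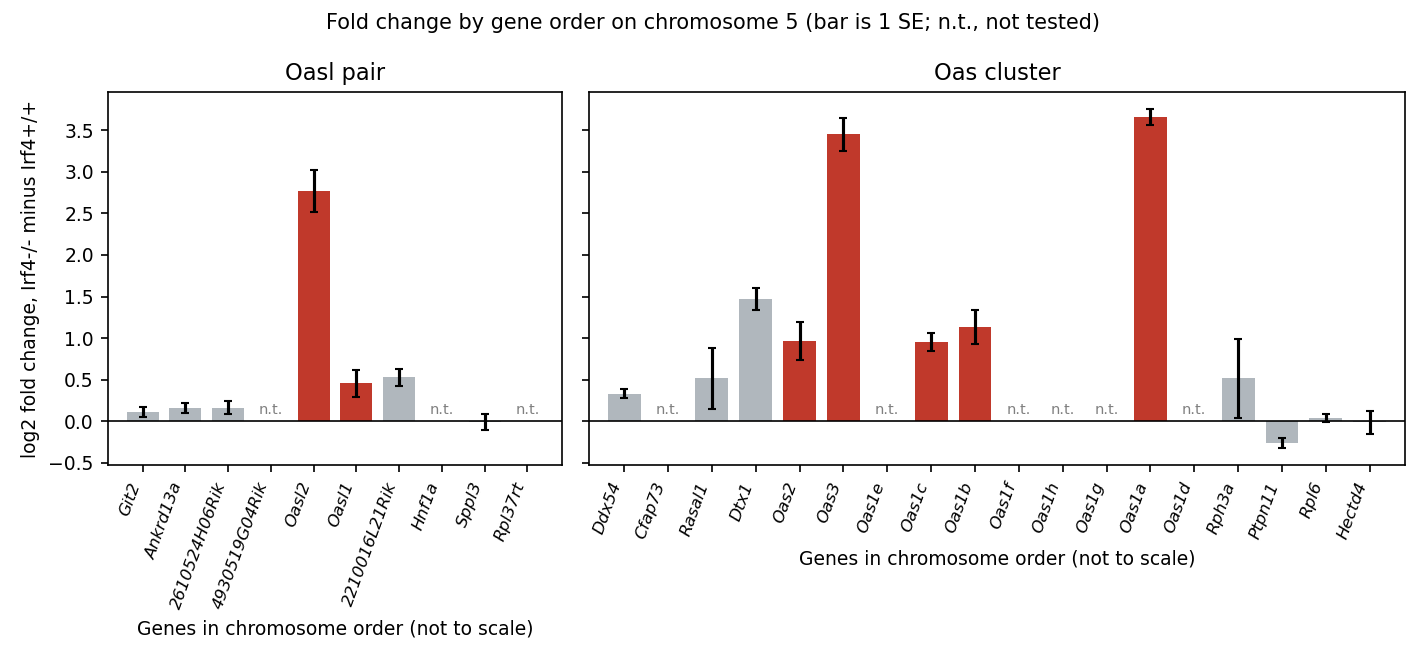
Log2 fold change (Irf4-/- minus Irf4+/+, bar of 1 SE) of the brightest probe set of each gene in chromosome order around the Oasl pair and the Oas cluster, with every Oas gene in red, neighbours in grey and n.t. for genes not tested. Oas3, Oas1a and Oasl2 stand above all their neighbours, and Dtx1, at 1.47, is the highest grey bar.

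A short list of genes tied to the synthetases moved both ways. It held Abce1, which recycles ribosomes, and Pde12 and Akap7, which have phosphodiesterase activity against the adenylate chains. Of 7 probe sets tested, 2 were called higher, 2 lower and 3 not called, against 20.5% higher and 19.4% lower over all probe sets, so the counts say nothing particular about the list. Abce1 fell on its brighter probe sets, from 2855 ± 192 to 1837 ± 161 on the brightest (SD, n = 5; log2 fold change -0.64, adjusted p = 1.05e-06) and with a log2 fold change of -0.72 on another, while a further one had -0.21 (adjusted p = 0.262). Pde12 rose from 1135 ± 41.9 to 1700 ± 103 (log2 fold change 0.58, adjusted p = 5.15e-07), with 0.83 on another probe set and -0.11 on a further one (adjusted p = 0.646). For Akap7 the log2 fold change was 0.35 (adjusted p = 0.107).

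Most genes of a list on type I interferon signalling, which also holds feedback inhibitors, were higher. Of 25 probe sets tested in that list, 20 were called higher, 0 lower and 5 not called, against 20.5% higher and 19.4% lower over all probe sets. The median log2 fold change of the list was 0.53, against 0.02 over all probe sets. Irf9, the DNA-binding part of ISGF3, rose from 293.5 ± 33.6 to 858.1 ± 92.1 (log2 fold change 1.52, adjusted p = 9.07e-10), and Stat2 from 133.2 ± 23.3 to 296.6 ± 35.3 (1.12, adjusted p = 1.68e-06; SD, n = 5). Irf7, which amplifies interferon production, rose from 42.6 ± 12.4 to 177.4 ± 33.3 (1.89, adjusted p = 3.94e-07), and Usp18, a feedback inhibitor of the interferon receptor, from 25.2 ± 13.8 to 160.0 ± 16.1 (2.44, adjusted p = 5.64e-07). The receptor chains Ifnar1 and Ifnar2 had log2 fold changes of 0.52 and 0.44 (adjusted p = 2.86e-04 and 0.00125), and a further Ifnar2 probe set was not called (adjusted p = 0.0517).

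Of 3 interferon probe sets tested, 1 was called higher, that of type II interferon, and 2 were not called, where 20.5% of all probe sets were called higher. The Ifnb1 probe set gave 34.3 ± 13.9 and 27.2 ± 16.5 (SD, n = 5; log2 fold change -0.33, adjusted p = 0.491), and that of Ifna1 43.3 ± 20.2 and 33.8 ± 14.8 (-0.30, adjusted p = 0.549). Ifna2 and Ifna4 did not reach the filter. Ifng, which T cells and natural killer cells make, rose from 11.1 ± 6.30 to 101.8 ± 19.1 (2.59, adjusted p = 7.10e-07). Its Irf4+/+ mean was under the level of the filter, which it passed through the Irf4-/- arrays. The count of interferon probe sets called higher therefore rests on that passage, though Ifng also had a limma adjusted p of 2.57e-06 with no filter.

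Some other sensors of foreign nucleic acid rose too. Of 25 probe sets tested, 15 were called higher, 3 lower and 7 not called, against 20.5% higher and 19.4% lower over all probe sets. Ifih1 (MDA5) rose from 80.6 ± 20.8 to 511.6 ± 25.7 (2.58, adjusted p = 1.83e-10), Zbp1 from 82.1 ± 16.4 to 523.7 ± 76.0 (2.57, adjusted p = 1.22e-10), and Ddx58 (RIG-I) and Dhx58 (LGP2) had log2 fold changes of 1.56 and 1.59 (adjusted p = 4.73e-11 and 5.68e-10; SD, n = 5). The adaptor Mavs (-0.24 and -0.49 on its probe sets) and the DNA sensor Cgas (-0.65) made up the 3 called lower. Only 1 was called lower without Irf4+/+ replicate 3, without Irf4-/- replicate 5 or with no trend in the variance model.

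Of 38 probe sets of other antiviral genes, 34 were called higher, 0 lower and 4 not called, against 20.5% higher and 19.4% lower over all probe sets. The median log2 fold change was 1.25, and Ifih1 stands in this list too. The list has 45 probe sets, and those not tested did not reach the filter, among them Mx2 (3.28 and 7.32) and Ifit3 (17.0 and 27.3). Rtp4, Parp12, Ddx60 and Ifit1 had Irf4+/+ means under the level of the filter (4.06 to 24.7). They passed it through the Irf4-/- arrays, so the count and the median rest in part on the filter. The exonuclease Isg20 rose from 181.0 ± 20.6 to 1187 ± 169 (log2 fold change 2.66, adjusted p = 4.48e-12), Samd9l from 72.5 ± 19.0 to 747.0 ± 32.2 (3.26, adjusted p = 1.06e-11), Parp14 from 555.6 ± 39.7 to 1752 ± 133 (1.64, adjusted p = 1.68e-11) and Herc6 from 97.5 ± 11.8 to 494.6 ± 55.4 (2.25, adjusted p = 4.13e-11; SD, n = 5). The 4 not called were the 3 probe sets of Trim25, a ligase that activates RIG-I, and that of Bst2. Without Irf4+/+ replicate 1, or with each array centred on its median, 1 probe set of the list was called lower.

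**Figure D4:**
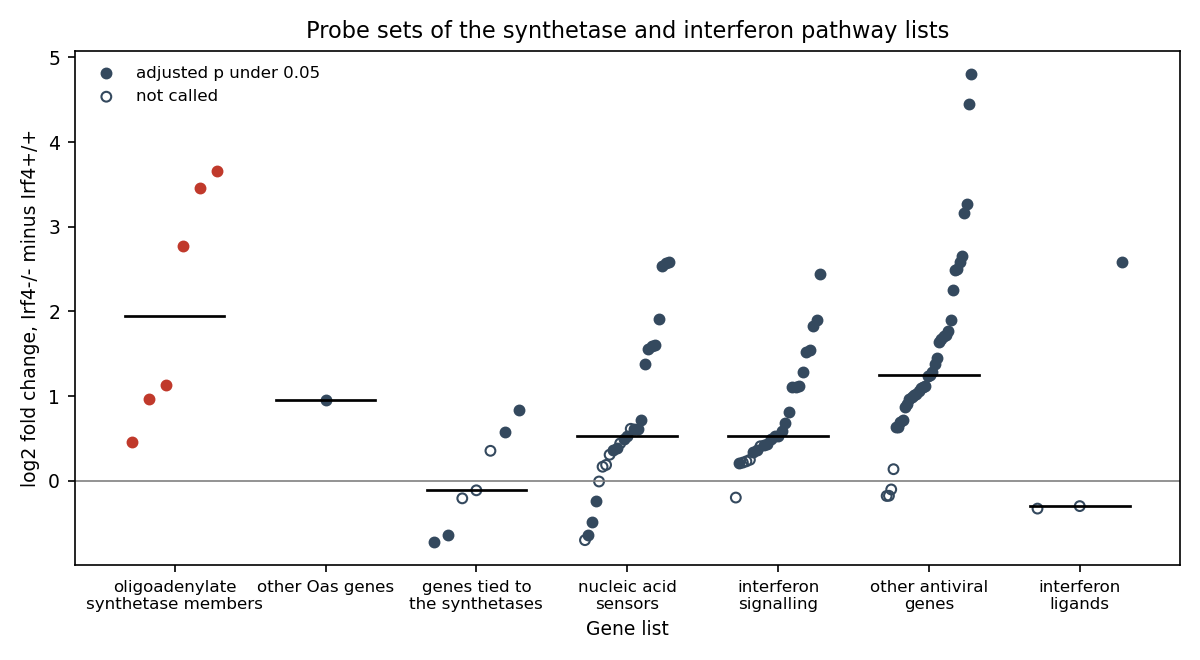
Log2 fold change (Irf4-/- minus Irf4+/+) of every probe set tested in each list, sorted within a list, with filled points for adjusted p under 0.05, open points for not called, and a line at the median. The synthetases, in red, span 0.46 to 3.66, within the range of the other antiviral genes, and the list with Abce1, Pde12 and Akap7 lies on both sides of 0.

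Genes with the profile most like that of Oas1a, the member with the brightest probe set, were sought by Pearson's r over the 10 arrays, which fall into the 2 genotypes, so r mostly reflects the genotype difference. The 5 highest were Cfp (properdin), Ms4a4c, Nckap1l, Vwa5a and Gm8369, with r from 0.997 to 0.998. Their log2 fold changes were 2.99, 4.52, 0.89, 2.36 and 1.92. After subtracting each genotype's mean, the 5 highest were 4933407I05Rik, Tkfc, Stom, Plin2 and Gm16499, with r from 0.911 to 0.956. They are the top of a search over every gene with a probe set above the filter. Such r values on few arrays therefore do not show that they vary with Oas1a. No gene of the interferon lists is among the 10 genes named.

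Markers of other cells also differed between these samples, and their part in the synthetase changes was not tested. Their counts stand against 20.5% called higher and 19.4% lower over all probe sets. Ncr1, Klrd1, Nkg7, S100a8, S100a9 and the dimmer probe sets of Eomes and Pax5 had Irf4+/+ means under the level of the filter. They passed it through the Irf4-/- arrays, so the B cell, natural killer cell and granulocyte counts rest in part on the filter. All 9 B cell probe sets were called higher, and the summed signal of 6 B cell marker genes was 23729 to 26324 in Irf4+/+ and 43775 to 47927 in Irf4-/- samples. For natural killer cells 9 of 10 probe sets were called higher, and the summed signal of 8 genes was 1273 to 1542 in Irf4+/+ and 11456 to 15919 in Irf4-/- samples (exact permutation test over 9 array measures, p = 0.00794 and adjusted p = 0.0119). Most of that sum came from the granzymes Gzma (means 818.6 and 8256) and Gzmb (362.0 and 4868). The receptor genes Ncr1 (16.2 and 45.7), Klrk1 (25.2 and 58.4) and Klrd1 (22.8 and 178.1) were far dimmer. Macrophage and monocyte markers summed to 415.5 to 506.5 and 1224 to 1431, with 4 of 7 probe sets called higher. Among them Adgre1 went from 153.2 to 610.9, Lyz2 from 30.5 to 181.1 and Cd68 from 114.8 to 310.8, while C1qa was at 2.54 and 3.82. The brightest Csf1r probe set (95.6 and 118.9) and Fcgr1 (43.6 and 42.8) were not called (limma adjusted p = 0.0872 and 0.976). Another Csf1r probe set was called higher. Granulocyte markers summed to 127.7 to 207.3 and 605.9 to 1023, with 3 of 5 called higher, led by S100a8 and S100a9. Mpo and Elane were not called (limma adjusted p = 0.716 and 0.673), and Camp did not reach the filter. T cell markers summed to 167.4 to 222.5 and 140.0 to 188.1, with 0 of 5 probe sets called higher, 1 lower (Cd28, from 82.9 to 55.3) and 4 not called. The brightest probe sets of Cd3d, Cd3e, Cd3g and Cd4 had means of 5.68 to 12.0 in both genotypes and were not tested, and Cd8a was at 81.9 and 77.2. Siglech, which marks plasmacytoid dendritic cells, the main makers of type I interferon, was at 19.8 and 11.5. Its groups overlapped and it did not reach the filter, so it was not tested. For plasmacytoid dendritic cell markers 2 of 11 probe sets were called higher, those of Pacsin1 (228.0 and 524.9 on the brightest), and 4 lower. The 4 lower were of Tcf4, Klk1 and Cox6a2. For conventional dendritic cell markers 3 of 7 were called higher and 2 lower. Their sum was 979.5 to 1137 in Irf4+/+ and 680.6 to 747.9 in Irf4-/- samples (exact permutation adjusted p = 0.0119). Those lower were Flt3 (417.3 and 53.2) and Batf3 (296.6 and 190.8), and those higher were of Zbtb46 and Itgax. The mean of the 18S ribosomal RNA controls went from 40.7 ± 16.2 to 141.6 ± 46.5 (SD, n = 5; adjusted p = 0.0119 by the exact permutation test).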

How the data were processed

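RNA of 10 B cell samples, 5 per genotype, was labelled from 6 ug of total RNA and hybridised to 1-colour Affymetrix arrays, per the labels. The authors deposited 1 linear signal intensity per probe set and array. The submitters' processing notes name MAS5, and no source used here gives its version, scaling target or detection calls. Each array had a mean of 250 once 2% of values at either end were removed, so no further scaling was applied. The platform annotation gives 34945 probe sets 1 symbol and 932 several, and leaves 9160 unnamed here. Symbols were updated by gene ID through RefSeq genes of GRCm38.p6, which held 34741 of the 1-symbol probe sets.

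Of 45101 probe sets, 64 controls were left out. Log2(signal + 7.9) values were fitted with genotype as the single term in limma 3.58.1 (lmFit, then eBayes with trend; R 4.3.3), and the two-sided p-values were adjusted over the 27024 probe sets above the filter. The procedure was tested on simulated data. Single array values and pairs of members were compared by exact permutation tests in scipy 1.17.1. The members and lists were chosen with earlier results of these data known, so no list was tested as a set. Some genes of these pathways are not reported here. Named genes were all members, the key interferon genes, up to 4 genes per list with the smallest p, and the 5 genes most like the brightest member by each measure. Akap7, the Ifnar, Mavs, Cgas, Trim25 and Bst2 probe sets, the neighbours and the single cell type markers were named after their values were seen. The same holds for Mx2, Ifit1, Ifit3, Rtp4, Parp12 and Ddx60. Alternatives covered pseudocount, filter, scaling, variance model, array weights, replicate number, choice of probe set and each array left out.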

Additional observations from a re-analysis of the deposited data

Results flagged for a closer look

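In 32 groups of 5 arrays examined (member probe sets, Oas1c and the array measures in each genotype), 5 held an array apart from the rest of its group, where chance gives about 1 in 20. In Irf4+/+ samples these were replicate 2 for Oas1b (108.7), replicate 1 for Oas3 (31.2) and for Oasl2 (9.8), and replicate 3 for Oasl1 (50.1). In Irf4-/- samples it was replicate 5 for Oasl2 (97.6).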

How the results depend on the processing

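Of the 6 members, 5 or 6 were called higher and 0 lower in each of 21 alternatives. Oas1a, Oas1b, Oas2 and Oas3 were called in all 21 and Oasl2 in all 20 that could test it (it was under the 60th percentile filter). The log2 fold change ranged from 3.52 to 3.72 for Oas1a, 0.96 to 1.32 for Oas1b and 0.76 to 1.11 for Oas2. Oasl1 was the member lost, in 7 of 21. Among pairs of members, 10 to 13 of 15 differed over 13 alternatives. With a pseudocount of 1 the differences of Oas1a from Oas3 and Oasl2 changed sign, to -0.24 and -0.0945. Neither then passed (exact permutation adjusted p = 0.549 and 0.794), and both partners had the lowest Irf4+/+ means (16.0 and 5.04). With only the brightest probe set per gene fewer features are tested: 5788 were called, 2861 of them higher. The lists then had 1 higher and 1 lower among Abce1, Pde12 and Akap7, 6 sensors higher and 22 antiviral genes higher. The number of sensors called lower was 1 without a variance trend and ranged from 1 to 3 with an array left out. Antiviral genes called lower were 1 with median centring and 0 to 1 with an array left out, and interferon signalling genes called lower were 1 with quantile normalization. Interferon ligands called higher were 0 with the 60th percentile filter, which removes Ifng. The causes of the other changes were not tested. Same-numbered arrays of the 2 genotypes did not deviate together (r from -0.03 to 0.04, and 1 of 5 Irf4+/+ and 0 of 5 Irf4-/- arrays correlated best with its own number), so the numbers were not taken as pairs. With the replicate block 6 members were called higher and 10638 probe sets in all. Signals under about 7.9 have no reliable order, which limits Oasl2 in Irf4+/+ samples.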
